A study of Mus musculus with 9 samples.

Results

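The list of chromatin peaks captured with Gm4665 probes holds 38827 peaks, and 1981 autosomal peaks absent from the LacZ control lay more than 100 kb from every annotated gene. Such long gene-free stretches are called gene deserts here. The 1981 peaks were chosen by position alone. A peak had to lie on chromosomes 1 to 19, overlap no LacZ control peak, and have both edges over 100 kb from the nearest edge of any RefSeq mm10 gene, pseudogenes and small RNA genes included. These 1981 peaks made up 5.31% of the 37274 autosomal Gm4665 peaks without a LacZ overlap. The LacZ list, filtered in the same manner, held 381 such peaks among 8869. A further 6 Gm4665 peaks lay as far from any gene but overlapped a LacZ peak, and were left out.

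Gm4665 is a mouse long noncoding RNA, an RNA that is not translated into protein. Such RNAs can act on chromatin away from the place where they are made. Capture with biotinylated probes retrieves the cross-linked chromatin an RNA touches, and peaks are places where the retrieved DNA exceeds input. Gene deserts are poor in coding sequence and rich in repeats, and much of their chromatin lies at the nuclear periphery in many cell types. Some of them hold enhancers that act over long distances on developmental genes at their borders.

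All groups used testicular germ cells of wild-type mice of the outbred ICR stock on postnatal day 35, an age when the first sperm are forming. The 9 samples formed 3 groups of 3 replicates: chromatin captured with Gm4665 probes, chromatin captured with LacZ probes, and input DNA. LacZ is a bacterial gene that mice lack, so its probes give the background of the capture. The sample titles call the captured RNA LncRNA-20 and the protocols call it Gm4665; no label equates these names. Germ cell stages were not separated, so a contact in few cells and a weak contact in many cells cannot be told apart. The assay reads DNA and gives no expression, so the cell type could not be checked against markers. Replicates are not stated to be different animals, so spread between them may be technical. Depth is unknown, since library totals were not used here. Fold is the authors' linear enrichment over input at a peak, 1 value per replicate, and is not comparable in level between the lists, which were normalized separately.

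Gene deserts held fewer Gm4665 peaks than their length would give. If each peak were placed at any position of its chromosome with equal chance, 7.43% (2769 peaks) would lie over 100 kb from a gene, against the 5.31% listed (95% Wilson interval 5.09% to 5.55%), a ratio of 0.715. The LacZ share was 4.30% (3.89% to 4.74%), against 7.403% by even placement, a ratio of 0.580. Both lists fell short of even placement there, LacZ by more, and the intervals of their shares did not overlap. The intervals cover counting error only and treat neighbouring peaks as independent. Gm4665 peaks numbered 11.0 per Mb over the 180.8 Mb of far sequence and 15.9 per Mb elsewhere, a density ratio of 0.690. LacZ peaks numbered 2.11 and 3.82 per Mb, a ratio of 0.552. Even placement was not corrected for assembly gaps, base composition or mappability, whose part in these ratios was not tested. With only the strongest 8869 Gm4665 peaks, as many as in the LacZ list, the Gm4665 ratio was 0.710.

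The shortfall began closer to genes than 100 kb and was widest beyond 300 kb in both lists. Inside genes, Gm4665 peaks were 1.06 times even placement and LacZ peaks 1.18 times. From 50 to 100 kb away the ratios were 0.834 for Gm4665 and 0.652 for LacZ. From 100 to 150 kb they were 0.737 (922 peaks) for Gm4665 and 0.609 (181 peaks) for LacZ. Beyond 300 kb they were 0.639 for Gm4665, with 198 peaks, and 0.383 for LacZ, with 28 peaks. The 95% intervals of Gm4665 and LacZ overlapped in each class from 100 to 300 kb. Beyond 300 kb they did not, with 0.556 to 0.734 for Gm4665 and 0.265 to 0.553 for LacZ.

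**Figure D1:**
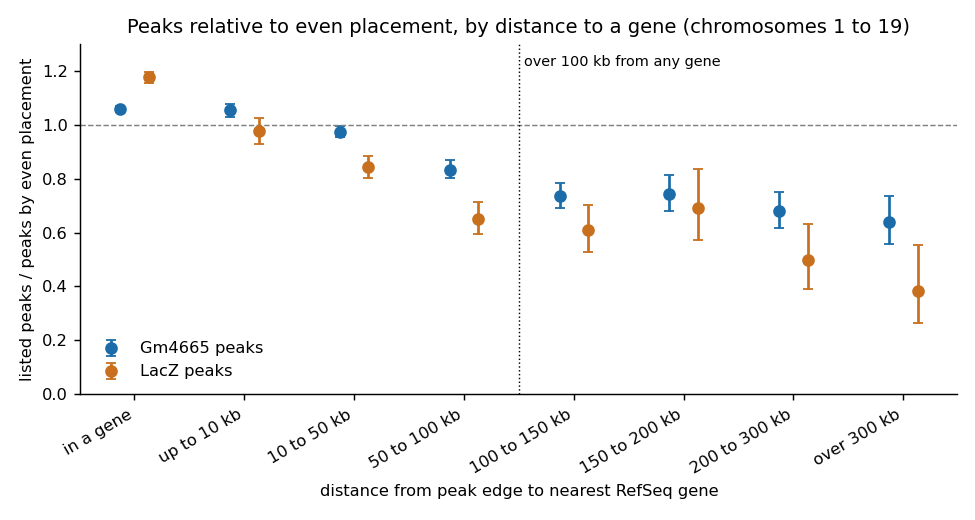
Peaks listed in each distance class divided by the number that even placement gives (vertical axis), for Gm4665 and LacZ peaks on chromosomes 1 to 19; bars are 95% Wilson intervals, which cover counting error only. Gm4665 peaks went below 1 past 10 kb from a gene and reached 0.639 beyond 300 kb, and LacZ peaks lay lower in every class outside genes.

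All 19 autosomes had fewer far Gm4665 peaks than even placement gives. The ratio ran from 0.581 on chromosome 16 to 0.897 on chromosome 7, with a median of 0.699. For LacZ it ran from 0.333 on chromosome 14 to 1.04 on chromosome 7, below 1 on 18 of 19. The Gm4665 ratio exceeded the LacZ ratio on 15 of 19 chromosomes. Chromosome 6 had the widest gap, 0.891 for Gm4665 against 0.337 for LacZ, with 132 and 11 far peaks. On chromosomes 7, 8, 13 and 19 the order was turned. Chromosome 1 held the most members, 208, and chromosome 19 the fewest, 39. LacZ counts of 11 to 43 peaks per chromosome make single LacZ ratios coarse.

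**Figure D2:**
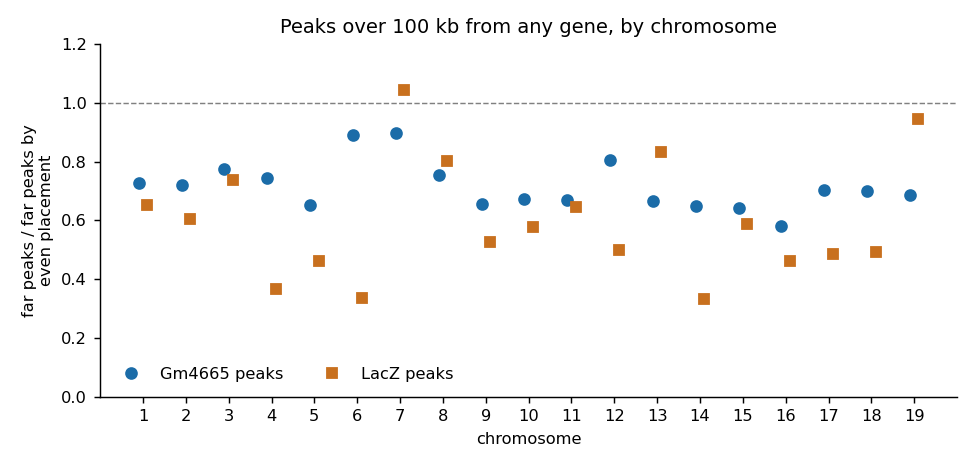
Far peaks on each chromosome divided by the number that even placement gives, for Gm4665 and LacZ peaks. All 19 Gm4665 points lie below 1, between 0.581 and 0.897, while LacZ points spread from 0.333 to 1.04.

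Once listed, a desert peak was about as strong as other peaks. Median fold among the 1981 members was 11.6, 8.16 and 11.1 in Gm4665 replicates 1, 2 and 3, against 11.4, 8.50 and 10.3 among the other 35293 peaks. The ratio of far to other peaks was 1.02, 0.960 and 1.08 (mean 1.02 ± 0.0600, SD, n = 3), so replicate 2 went the other way from replicates 1 and 3. In the LacZ list the ratios were 1.203, 1 and 1.06 (mean 1.09 ± 0.105, SD, n = 3). Gm4665 and LacZ ratios overlapped, and their log2 difference was -0.09 with p = 0.5 by an exact permutation test, two-sided; 3 against 3 cannot go below 0.1.

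Peaks with a mean fold of at least 20 occurred in deserts at the rate of the whole list, and those of at least 40 at a somewhat lower rate. A mean fold of at least 20 was reached by 327 of 1981 members, or 16.5%, where 16.5% of all autosomal peaks without a LacZ overlap reached it. At a mean fold of at least 40 there were 41 members (2.07%), against 2.68% of all such peaks. Among LacZ peaks chosen the same way, 116 of 381 (30.4%) reached 20, against 23.8% of their list, and 7 (1.84%) reached 40, against 2.26%. A fold of at least 4 in every replicate was met by 1909 members (96.4%), beside 95.8% of the list. For LacZ it was 378 of 381, beside 98.6%. Mean folds of members ran from 3.48 to 101 around a median of 10.2.

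Fold of Gm4665 peaks hardly moved with distance, while 1 LacZ library did. From inside genes to beyond 300 kb, the median was 11.6 at both ends in Gm4665 replicate 1, 8.69 and 7.82 in replicate 2, and 10.4 and 11.5 in replicate 3. At the same ends it was 22.9 and 30.8 in LacZ replicate 1, 8.39 and 8.75 in replicate 2, and 11.0 and 12.4 in replicate 3. Without replicate 1 of both lists, the far-to-other ratio averaged 1.02 for Gm4665 and 1.03 for LacZ (n = 2 each).

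**Figure D3:**
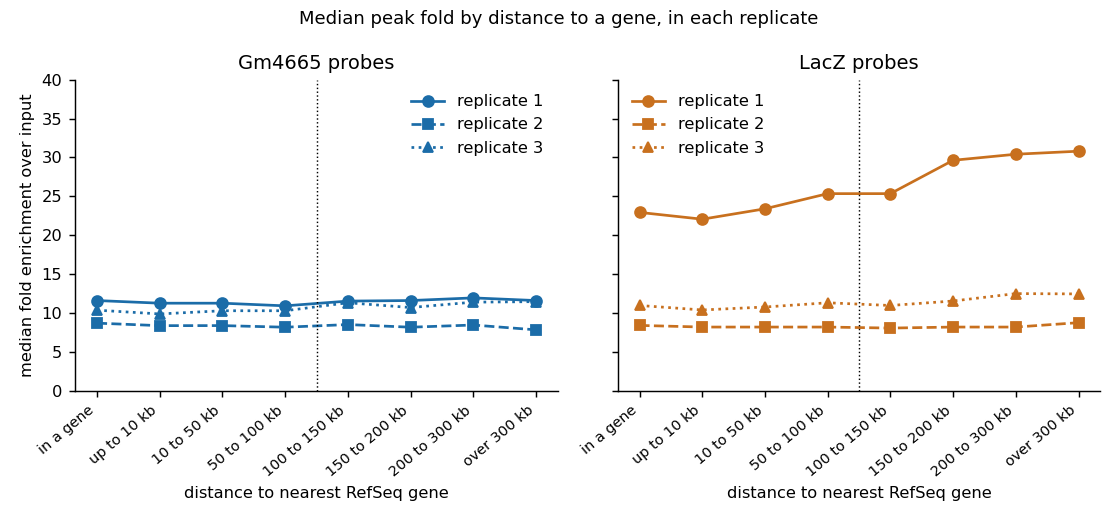
Median fold over input by distance class in each replicate, Gm4665 on the left and LacZ on the right; the dotted line marks 100 kb. The 3 Gm4665 lines are nearly flat between 7.82 and 11.9, and LacZ replicate 1 climbs most, to 30.8 beyond 300 kb.

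Replicates spread about as much within deserts as outside them. The SD over the 3 replicates was a median 0.230 of the mean fold in members and 0.219 in other Gm4665 peaks. Replicate 1 exceeded replicate 2 in 1705 members (86.1%), against 81.9% of other peaks, and the median quotient of replicate 1 over replicate 2 was 1.37 against 1.32. LacZ far peaks spread more, with a median SD of 0.621 of the mean against 0.540 in other LacZ peaks, and replicate 1 was the highest of the 3 in 377 of 381. Across members, Spearman's rho between replicates was 0.825, 0.846 and 0.783 for replicates 1 and 2, 1 and 3, and 2 and 3, a description over peaks of the same libraries.

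Desert peaks were slightly narrower than the rest. Their median width was 549 bp (quartiles 355 and 804), against 586 bp for other Gm4665 peaks, a ratio of 0.937. LacZ far peaks went the other way, 877 against 845 bp. No member exceeded 2228 bp. Wider members were the stronger ones, with Spearman's rho of 0.813 across members, beside 0.818 across the other peaks; width and fold come from the same reads.

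The strongest member lay on chromosome 18 from 55305675 to 55307395, between the pseudogene Gm22597 and the lncRNA gene Gm34233, 112 kb from the nearer. Replicates 1, 2 and 3 gave it folds of 111, 92.5 and 99.1, averaging 101 ± 9.27 (SD, n = 3), and it ranked 9 among all 37274 peaks. The nearest protein-coding genes on either side were Zfp608, which encodes a zinc finger protein, at 313 kb, and Gramd3 at 1080 kb.

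The next members were weaker and less even between replicates. On chromosome 1, from 108190652 to 108192087, fold was 74.4, 54.8 and 96.6 (75.3 ± 20.9, SD, n = 3). This peak stood 163 kb from LOC115487113, a lncRNA gene, and its nearest protein-coding gene was Serpinb8, of the serine protease inhibitor family, at 582 kb. On chromosome 5, from 68685351 to 68687190, fold was 65.5, 54.1 and 76.1 (65.2 ± 11.0, SD, n = 3), with Kctd8, which encodes an auxiliary subunit of GABA-B receptors, 422 kb away. On chromosome 6, from 74185827 to 74187973, fold was 70.2, 56.8 and 60.5 (62.5 ± 6.95, SD, n = 3). The gene nearest to that peak was the snoRNA gene Gm26179 at 153 kb, and the nearest protein-coding gene was 4931417E11Rik at 716 kb.

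A peak on chromosome 4 from 55805346 to 55807352 had folds of 64.4, 49.997 and 57.6 (57.3 ± 7.23, SD, n = 3). It lay between the lncRNA genes Gm12506 and Gm34482, and 273 kb from Klf4, which encodes a pluripotency transcription factor. In the other direction Actl7b, a testis actin-like gene, stood 933 kb off. The sixth and seventh lay between pseudogenes, on chromosome 16 between Gm22459 and Gm5487 (54.7 ± 5.20) and on chromosome 18 between Gm5824 and Gm7623 (54.7 ± 16.3; SD, n = 3 each). The chromosome 18 peak had 73.0 in replicate 1, above the 49.4 and 41.6 of replicates 2 and 3.

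The nearest gene was protein-coding for 3 of the 10 strongest members, against 15.9% of all members. One lay on chromosome 4 from 89892962 to 89894663, 198 kb from Dmrta1, which encodes a DM-domain transcription factor, and 324 kb from Zfp352, a zinc finger gene. Its folds were 58.6, 39.1 and 66.2 (54.7 ± 13.98, SD, n = 3). Another lay on chromosome 1, 132 kb from Epha4, an ephrin receptor gene of axon guidance, with the even folds 54.8, 49.3 and 58.0 (54.0 ± 4.38, SD, n = 3). The tenth lay on chromosome 16, 108 kb from Ncam2, a neural cell adhesion gene, with 54.2, 48.0 and 59.2 (53.8 ± 5.64, SD, n = 3).

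These 10 peaks were 1259 to 2147 bp wide, well above the members' median of 549 bp, and replicate 2 was the lowest of the 3 in 8 of them. Which peaks made up the strongest 10 was only partly settled: leaving out replicate 1, 2 or 3 kept 8, 7 or 8 of them, with the chromosome 18 peak between Gm22597 and Gm34233 first each time. Of the 100 strongest autosomal Gm4665 peaks without a LacZ overlap, 4 were members, where members made up 5.31% of all such peaks.

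**Figure D4:**
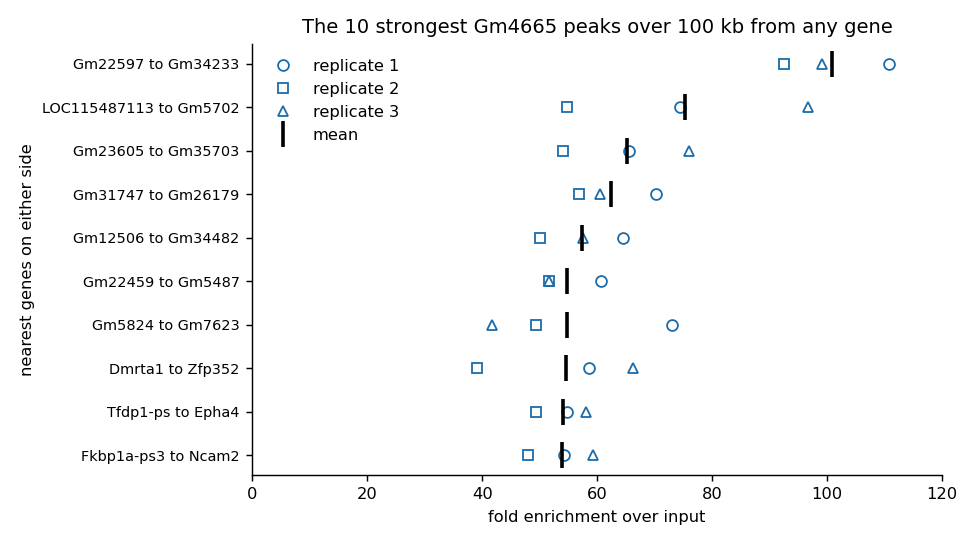
Fold over input of the 10 strongest Gm4665 peaks over 100 kb from any gene, named by the nearest gene on each side; open symbols are the 3 replicates and black bars their mean. The peak between Gm22597 and Gm34233 lies between 92.5 and 111, nearly clear of the others, of which only replicate 3 of the second peak exceeded 92.5.

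The distance limit cut through a continuous range. Members lay a median of 154 kb from the nearest gene (quartiles 122 and 214 kb), and 585 were over 200 kb and 18 over 500 kb away. LacZ far peaks lay a median of 155 kb away. The 5 members just inside the limit lay 100.001 to 100.251 kb from the genes Gm2622, Gm18414, Gm7729, Rprm and Gm5684, with mean folds of 9.24, 19.01, 13.3, 9.06 and 6.24. The 5 peaks just outside lay 99.68 to 99.88 kb from Gm6392, Thsd7b, Gm4936, Gm31055 and Gm23852, with mean folds of 15.7, 13.1, 10.8, 14.7 and 5.25.

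The most remote members were of ordinary strength. The farthest stood 621 kb from any gene, on chromosome 3 from 42628748 to 42629077, between the pseudogenes Gm7899 and Gm9723. Its folds of 8.52, 7.77 and 8.64 (8.31 ± 0.471, SD, n = 3) were below the members' median. The nearest protein-coding gene was D3Ertd751e at 825 kb. In the same stretch another of the 5 farthest had a mean fold of 17.2 ± 5.89 (SD, n = 3). The others lay between Gm11919 and 4930556G01Rik on chromosome 4 (6.54 ± 2.24), between Gm7272 and Gm24127 on chromosome 14 (13.5 ± 5.55), and between Gm7931 and Gm17824 on chromosome 5 (7.07 ± 1.14; SD, n = 3 each). Epha7, another ephrin receptor gene, Pcdh9, a protocadherin gene, and Slit2, which encodes a secreted axon repellent, were the nearest protein-coding genes of these 3, at 816, 1224 and 1002 kb.

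The chromosome 14 stretch between Gm7272 and Gm24127 also held the fourth strongest LacZ far peak. It ran from 91791700 to 91793110, 1.97 kb from the Gm4665 peak at 91789120 to 91789726. The Gm4665 peak had folds of 13.9, 7.82 and 18.9 with Gm4665 probes, and the LacZ peak 78.8, 23.2 and 27.1 with LacZ probes. Levels are not comparable between the lists. The rule kept this Gm4665 peak because the intervals do not overlap. Among all members, 8 lay within 1 kb and 43 within 5 kb of a LacZ peak, and the median distance to one was 157 kb. The same counts for other Gm4665 peaks are not given here. LacZ peaks were sparser in far sequence (2.11 per Mb) than elsewhere (3.82), so these counts do not show that members are freer of control signal.

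Members lay in many deserts, and the number of deserts that even placement would fill was not computed. There were 1151 gene-free stretches long enough to hold one, which takes just over 200 kb, and 727 of them (63.2%) held at least 1 member. A single member was found in 274, 2 to 4 in 338, and 5 or more in 115, which together held 790 members. LacZ far peaks lay in 281 stretches, of which 237 also held a Gm4665 member. Above a far part of 10 kb, density fell as stretches grew. It was 13.3 Gm4665 peaks per Mb where the far part measured over 10 to 50 kb, 12.2 at over 50 to 200 kb, 10.5 at over 200 to 500 kb and 9.68 above that. LacZ density ran from 3.09 to 1.65 per Mb over the same classes. The 86 stretches with a far part of 10 kb or less held 6 Gm4665 peaks and 0 LacZ peaks over 0.427 Mb. All 61 stretches with a far part over 500 kb held at least 1 member.

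The stretch with the most members, 16, lay on chromosome 6 between the lncRNA gene Gm35216 and Cntnap2, which encodes a neurexin-family protein of axons. It was 977 kb long and was picked for its count. Its far part held 20.6 members per Mb, against 11.0 over all far sequence and 27.1 in a shorter stretch with 12 members. The 16 members between Gm35216 and Cntnap2 had mean folds of 5.51 to 27.2 around a median of 11.0, and the 3 LacZ peaks there 11.5 to 22.2. The member closest to Gm35216, from 44184278 to 44185151, had folds of 29.0, 14.6 and 35.4. The strongest, from 44458720 to 44459607, had 30.3, 18.7 and 32.5, and a weaker one lay just before it with 8.18, 5.10 and 8.22.

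The next stretches by number held 13 or 12 members. Those between Gm9630 and 4930557F08Rik on chromosome 15 (1311 kb) and between Gm19050 and Gm24774 on chromosome 14 (1283 kb) held 13 members each and no LacZ far peak. The stretch between the pseudogenes Gm11498 and Gm11500 on chromosome 11 held 13 members and 4 LacZ peaks. The chromosome 3 stretch between Gm7899 and Gm9723 held 12, as did 2 shorter stretches. Its strongest member, from 42282099 to 42283175, had folds of 46.0, 36.7 and 37.8 (40.2 ± 5.08, SD, n = 3), and its other 11 had mean folds of 5.51 to 24.8. The 12 stretches of 1 Mb or more held 106 members and 21 LacZ far peaks over 11.9 Mb of far sequence. The longest, 1468 kb between Gm11919 and 4930556G01Rik, held 10 members. At the other end, and named after its count was seen, the largest stretch with no member lay on chromosome 14 between Gm41225 and Gm17882 (610 kb) and held 1 LacZ peak.

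**Figure D5:**
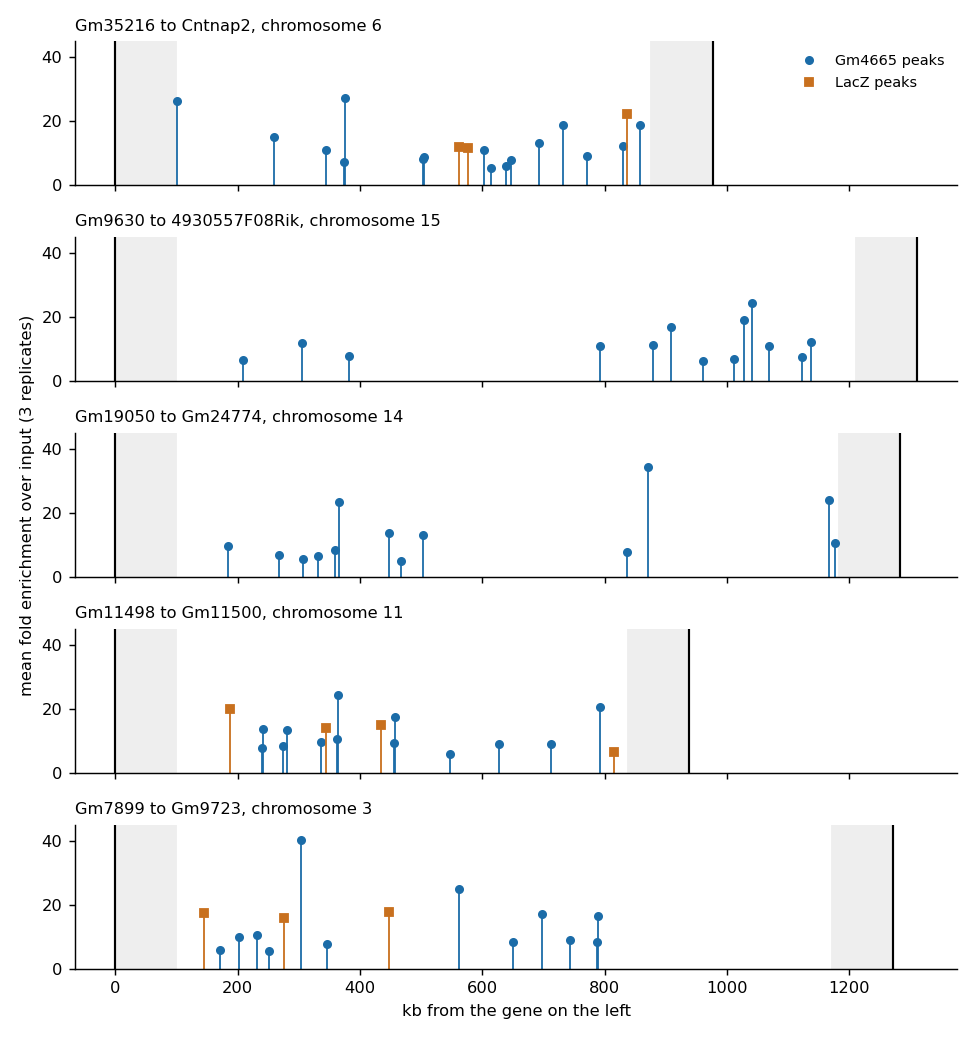
Members in the 5 gene-free stretches that held most, by distance in kb from the gene on the left (horizontal axis) and mean fold over 3 replicates (vertical axis), with LacZ far peaks shown beside Gm4665 peaks. Black lines are the bordering genes and grey bands the 100 kb next to them, which the rule leaves out; peaks spread over each stretch with most mean folds below 20.

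Members lay farther from the next Gm4665 peak than other peaks did. The median gap to the nearest Gm4665 peak was 29.1 kb for members and 20.7 kb for the rest, and 20.2% of members, against 28.9% of the rest, had one within 10 kb. For LacZ the medians were 160 kb for far peaks and 75.5 kb for the rest.

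The genes at desert borders were mostly not protein-coding. The nearest gene was a pseudogene for 814 members (41.1%), a lncRNA gene for 584 (29.5%) and a protein-coding gene for 314 (15.9%). Pseudogenes stood at 40.3% of the gene edges of all 1151 stretches and 40.2% of those of stretches with a member. These shares count edges, so a gene with such a stretch on both sides counts at each. Of all autosomal genes, 18.8% were pseudogenes and 44.0% protein-coding. Members lay a median of 396 kb from the nearest protein-coding gene, and 779 (39.3%) lay over 500 kb from one.

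Gene families were listed by symbol with no filter on gene type, so noncoding genes with such symbols could enter. Among genes of neuronal adhesion and axon guidance, 19 of 107 (17.8%) bordered a stretch able to hold a member. The share was 1.87% of all protein-coding genes and 4.35% of all genes. Of their 22 stretches, 15 (68.2%) held a member, against 63.2% of all stretches. Beside Epha4, the strongest members in these stretches were in those of Cntnap5a (47.1 ± 5.21) and Dpp6 (41.3 ± 6.75, 108 kb from the gene). Cntnap5a encodes a relative of the Cntnap2 protein, and Dpp6 a potassium channel subunit. The Cntnap5a member lay 608 kb from that gene in an 805 kb stretch, so nearer the other border. At Lrrtm4, a synapse adhesion gene, the strongest had 35.0 ± 9.07 at 295 kb (SD, n = 3 each). The stretch at Cntnap5a held 7 members and 3 LacZ peaks, and that at Lrrtm4 held 8 members and none.

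Of 33 listed cadherin and protocadherin genes, 10 (30.3%, beside 1.87% of all protein-coding genes) bordered 11 stretches, of which 6 (54.5%) held a member. On chromosome 15, Cdh12 and Cdh18, both neuronal cadherin genes, lay on either side of the lncRNA gene Gm41278. The strongest peak between Cdh12 and Gm41278 had folds of 53.5, 37.4 and 46.5 (45.8 ± 8.08), and that between Gm41278 and Cdh18 had 46.0, 34.0 and 36.6 (38.9 ± 6.33; SD, n = 3 each). Pcdh9 followed with 24.6 ± 2.93, 407 kb from the gene in a 555 kb stretch, and Cdh20 with 10.6 ± 3.04 at 118 kb (SD, n = 3 each).

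Of 181 genes listed by developmental transcription factor symbols, 9 (4.97%) bordered 8 stretches. This was near the 4.35% of all genes and above the 1.87% of all protein-coding genes. Of these stretches, 6 (75%) held a member, all of moderate fold. The strongest (17.3 ± 4.203) stood 236 kb from Irx1, an Iroquois homeobox gene, in a 386 kb stretch, from 72199640 to 72200175. A LacZ far peak lay just beyond it, from 72201120 to 72201993, with folds of 19.1, 10.9 and 15.0. Next came members at Zfhx3, a homeobox and zinc finger gene (12.99 ± 1.90, 143 kb), and at Pou1f1, the pituitary factor gene (12.9 ± 2.38, 120 kb). The stretch from Irx5 to Irx6 held 2, the stronger with 7.94 ± 2.00 (SD, n = 3 each). The stretches at Irx1 and Zfhx3 held 4 LacZ peaks each, more than their 3 and 2 Gm4665 members.

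Of 177 sperm and germ cell genes, 3 (1.69%) bordered a stretch able to hold a member. The share was 1.87% of all protein-coding genes and 4.35% of all genes. The 3 sperm and germ cell genes bordered 3 stretches, of which 2 held a member. The strongest member at Izumo3, a sperm acrosome gene, had folds of 26.9, 20.1 and 14.4 (20.4 ± 6.23), 161 kb from the gene. That at Adam26b, a testis metalloprotease-family gene, had 9.06 ± 2.08 at 106 kb (SD, n = 3 each). Among 2043 olfactory and vomeronasal receptor genes and pseudogenes, 5 (0.245%, beside 4.35% of all genes) bordered 6 stretches, of which 2 held a member. The strongest members there had 27.9 ± 8.64, 164 kb from the pseudogene Olfr1400-ps1, and 8.11 ± 2.82, 120 kb from the pseudogene Olfr717-ps1 (SD, n = 3 each). With so few stretches per family, these shares are descriptions and carry no test.

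The leading LacZ far peaks had uneven replicates. The strongest lay on chromosome 11 between Tenm2, which encodes a teneurin adhesion protein, and Gm33791, with folds of 81.9, 18.2 and 35.8 (45.3 ± 32.9, SD, n = 3). The second lay on chromosome 1 between Gm25457 and Gm18183 (44.5 ± 37.1), and the third beside Cntnap5a (44.0 ± 17.0; SD, n = 3 each), in a stretch that held Gm4665 members too. Replicate 1 was the highest in all 3.

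On chromosome 9, which carries Gm4665 itself (115178427 to 115186101), 55 members were listed, a ratio of 0.656 to even placement. The LacZ ratio there was 0.527, with 11 far peaks. The nearest member lay 2.49 Mb from Gm4665 with a mean fold of 12.01 ± 0.477 (SD, n = 3), and it was the only 1 within 10 Mb. Chromosome 9 has 5.04 Mb of far sequence in all, and how much of it lies within 10 Mb of Gm4665 was not counted.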

How the data were processed

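The authors deposited 1 peak list per probe set, made with MACS2 as the file names have it (aligner, version and settings not given in the sources used here), with 1 linear fold over input per replicate and interval, per the file headers. The deposited pileup signal was not reported. The deposited interval length column gave widths. Coordinates are in mm10, per the submitters' processing notes; gene positions came from RefSeq GRCm38.p6. Input entered only as the authors' denominator.

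Repeated intervals (645 Gm4665 and 159 LacZ rows on chromosomes 1 to 19) were joined with the highest fold kept. Of 47042 genes, 328 starting below 3 Mb were taken as scaffold coordinates and left out. Overlap meant 1 bp. Even placement was computed exactly from gene positions, each chromosome running from 3 Mb to its last gene or peak, and was tested on simulated data. Replicate ratios were compared by exact permutation. Tools were Python 3.11.15, pandas 2.3.3 and SciPy 1.17.1. Alternatives covered the distance limit, gene types, fold filters, list size and replicates.

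Genes named border the 10 strongest and 5 farthest members, the 5 fullest stretches, the 3 strongest LacZ far peaks, the 5 peaks on each side of the limit, and up to 4 genes per family, taken by their strongest member; nearest protein-coding genes were added later. Members and lists were chosen with earlier results of these data known. No genome sequence was used, so no sequence is shown.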

Additional observations from a re-analysis of the deposited data

How the results depend on the processing

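Of 94 values recomputed, 79 were counted as unchanged, and every far share stayed below even placement. Unchanged meant within the interval, replicate spread or set tolerance, except for the log2 difference of fold ratios. For that difference the rule used the exact permutation p, which 3 against 3 cannot bring below 0.1. Only a turned sign could therefore count as a change there. The Gm4665 ratio to even placement was 0.774 at a 50 kb limit, 0.665 at 200 kb and 0.823 with protein-coding genes only; its density ratio was 0.734, 0.652 and 0.762 there, and 0.617 with X and Y added. The LacZ ratio was 0.457 at 200 kb and 0.704 with protein-coding genes only, with density ratios of 0.443 and 0.623. Each limit selects other distances by construction; for X and Y the cause was not tested. The log2 difference of fold ratios (Gm4665 minus LacZ, -0.09 as reported) was 0.0753 within quartiles of peak width (exact permutation p = 0.4), a turned sign; the cause was not tested. Leaving out 1 replicate at a time gave -0.15 to -0.01, and the 200 kb limit gave -0.173. As a replicate block fit it was -0.0890 with exact permutation p = 0.5, where 0.25 is the smallest possible; the lists share no intervals, so whether numbers pair samples could not be checked peak by peak. The ratio of replicate spread in Gm4665 members over other peaks was 0.902 to 1.16 when 1 replicate was left out. Listed genes bordered 4.26% of stretches with a member, and 17.4% with protein-coding genes only, where stretches end at coding genes by construction. Depth is unknown, and the peaks themselves stayed as called on all replicates.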
